A study of Mus musculus with 2 samples.

Results

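Erythroid cells were picked out of 2 single-cell RNA libraries of mouse brain by their haemoglobin transcripts. A cell entered when Hba-a1, Hba-a2, Hbb-bs and Hbb-bt together made up at least 20% of its unique molecular identifiers (UMIs, each a tag of a captured RNA molecule), among barcodes with 500 to 50000 UMIs and no more than 30% of them from mitochondrially encoded genes. By this rule 115 of 13528 filtered cells were counted as erythroid in the E4 library and 149 of 11288 in the E3 library, or 264 of 24816 in all. The name rests on the rule alone. Most of the 28 E4 and 24 E3 cells among them with under 80% haemoglobin also carried marker transcripts of another brain cell type, as described below. The E4 mice carried human APOE4, and the E3 mice human APOE3, in place of mouse Apoe on both chromosomes and under the mouse promoter. Both groups were females of 11 to 12 months, and for each genotype the right hemispheres of 3 animals, without brainstem and cerebellum, were pooled into 1 suspension and 1 library after flushing of the blood vessels with cold saline, enzymatic dissociation with warming and removal of debris. Since each genotype was 1 pooled library, no difference between E4 and E3 has a replicate check; 95% intervals below are exact, cover counting error only, and say nothing of the spread between animals.

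Erythroid cells that circulate in the blood are reticulocytes and mature red cells. Reticulocytes have expelled the nucleus but still hold messenger RNA made before that step. While they mature they go on making globin and haem, take apart their mitochondria and ribosomes by autophagy and the ubiquitin system, and harden the membrane skeleton. Adult mouse haemoglobin joins 2 alpha chains, from Hba-a1 and Hba-a2, with 2 beta chains, from Hbb-bs and Hbb-bt. The haem that each chain holds is begun by Alas2, the erythroid aminolevulinate synthase, and finished by Fech, the ferrochelatase that inserts the iron.

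The upstream sequences of the genes that define these cells are printed here because the data turn on the balance between 2 beta-globin copies and on Alas2. Each is the 250 bases before the start site on the coding strand, from RefSeq on GRCm38.p6, the patch release of mm10. Hbb-bs lies on the minus strand at chr7:103827929-103828178 and Hbb-bt on the same strand at chr7:103813924-103814173, Hba-a1 lies on the plus strand at chr11:32283422-32283671, and Alas2 on the plus strand at chrX:150547167-150547416. Capitals mark letters that match GATA with A or T before it and A or G after it (the core of GATA factor sites), CCNCNCCC (the core of erythroid KLF sites) or CCAAT, on either strand.
Hbb-bs: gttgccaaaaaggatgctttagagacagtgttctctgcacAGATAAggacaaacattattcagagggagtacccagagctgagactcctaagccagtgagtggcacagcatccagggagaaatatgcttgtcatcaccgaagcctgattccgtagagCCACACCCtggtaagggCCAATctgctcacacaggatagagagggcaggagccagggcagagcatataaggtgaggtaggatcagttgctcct
Hbb-bt: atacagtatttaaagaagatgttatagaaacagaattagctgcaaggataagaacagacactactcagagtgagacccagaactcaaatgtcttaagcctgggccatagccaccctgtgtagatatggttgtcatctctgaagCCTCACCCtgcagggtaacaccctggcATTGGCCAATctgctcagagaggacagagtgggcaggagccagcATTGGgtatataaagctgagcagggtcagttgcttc
Hba-a1: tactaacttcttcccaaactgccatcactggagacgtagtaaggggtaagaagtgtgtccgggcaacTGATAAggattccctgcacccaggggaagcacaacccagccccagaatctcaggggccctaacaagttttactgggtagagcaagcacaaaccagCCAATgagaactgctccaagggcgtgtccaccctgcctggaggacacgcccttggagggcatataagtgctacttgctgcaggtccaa
Alas2: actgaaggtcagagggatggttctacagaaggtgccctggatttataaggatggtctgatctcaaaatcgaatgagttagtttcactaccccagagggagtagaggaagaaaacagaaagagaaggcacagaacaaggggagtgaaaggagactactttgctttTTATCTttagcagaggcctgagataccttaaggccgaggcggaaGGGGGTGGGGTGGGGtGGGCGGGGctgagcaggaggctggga
Over all 32841 upstream windows of the same length, 26.54% held a GATA match, 45.94% a CCNCNCCC match and 33.86% a CCAAT match. The Hbb-bs window held 1 match of each kind. The Hbb-bt window held no GATA match, 1 CCNCNCCC match and 3 CCAAT matches, of which 2 adjoin on opposite strands, and the CCNCNCCC letters differ between the copies, ccacaccc in Hbb-bs and cctcaccc in Hbb-bt. Hba-a1 held 1 GATA and 1 CCAAT match and no CCNCNCCC match. Alas2 held 1 GATA match and 4 CCNCNCCC matches, 3 of them overlapping. These matches are letters in a window and not measured binding. The Hba-a2 window was identical to that of Hba-a1 over 247 bases at a shift of 3, so only the Hba-a1 copy is shown.

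The haemoglobin values in this paragraph come from the same counts that chose the cells. They describe the choice and do not test it. Erythroid cells were 0.850% (0.702 to 1.02) of filtered cells in the E4 library and 1.32% (1.12 to 1.55; exact binomial intervals) in the E3 library, a log2 ratio of -0.63 (-0.999 to -0.274). They held 99.3% of all haemoglobin UMIs of the filtered E4 cells and 97.5% of those of the E3 cells. Among all filtered cells that were not erythroid, 85.7% had no haemoglobin UMI in E4 and 51.4% in E3. Their mean was 0.313 haemoglobin UMIs per cell in E4 and 2.09 in E3. These include 11 cells in each library with 1 to 20% haemoglobin, among them an E3 cell of 28348 UMIs at 17.9%. Below, other cells are filtered cells with under 1% haemoglobin. Few cells lay near the threshold. In E4 the nearest member had a haemoglobin share of 21.8% and the nearest cells outside had 17.4% and 16.8%. In E3 the members at 20.1, 20.2, 20.5 and 20.9% stood just inside, and cells at 18.0 and 17.9% just outside. The libraries held 13802 barcodes in E4 and 11485 in E3, with a median of 4102 and 3803.5 UMIs per filtered cell. Of these barcodes 46 occurred in both libraries, none of them erythroid.

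Most erythroid cells were nearly pure haemoglobin. The median haemoglobin share was 92.9% in E4 and 95.1% in E3, with ranges of 21.8 to 97.6% and 20.1 to 97.8%. The median cell had 5496 UMIs in E4 and 7047 in E3, of which only 278 and 267 lay outside the haemoglobin genes. By ranges of haemoglobin share, 11, 17, 48 and 39 E4 cells, against 9, 15, 49 and 76 E3 cells, lay at 20 to 50%, 50 to 80%, 80 to 95% and 95 to 100%. The 28 E4 and 24 E3 cells under 80% were few, yet they supplied 79.1% of all non-haemoglobin UMIs of the E4 members and 66.6% of those of the E3 members. A sum over all members is therefore mostly a sum over those few cells.

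**Figure D1:**
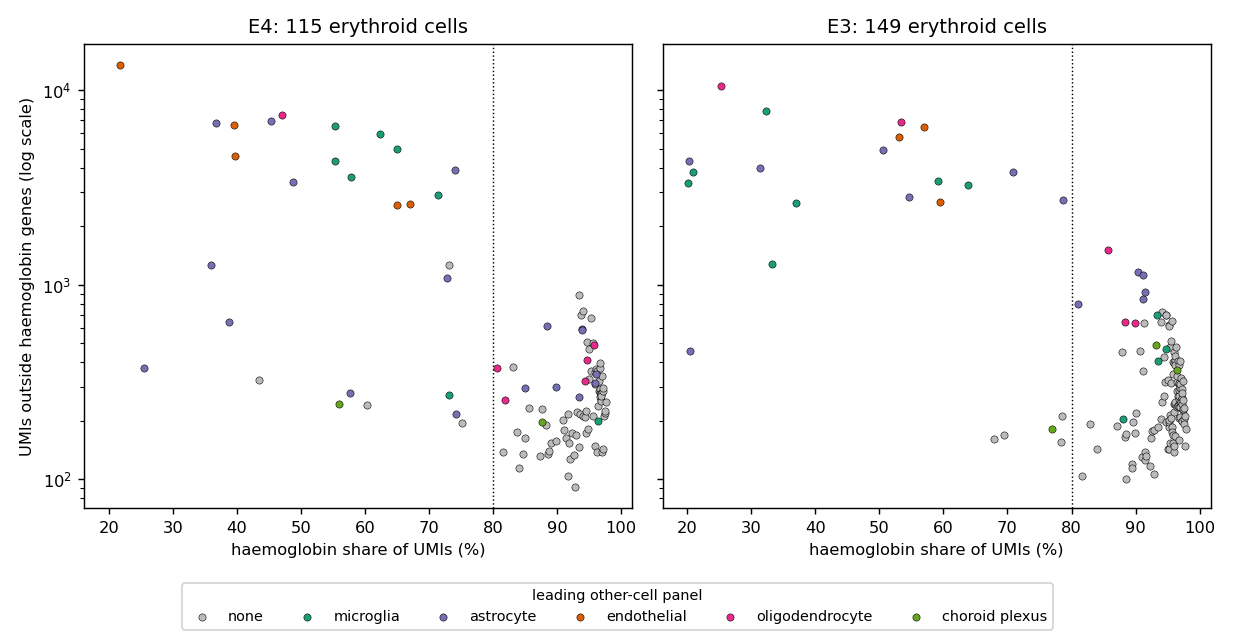
Each point is 1 erythroid cell, E4 on the left and E3 on the right, with its haemoglobin share of UMIs in percent on the x axis and its UMIs outside haemoglobin genes on a log y axis. Colour gives the marker panel of another brain cell type that leads in the cell, if any, and the dotted line stands at 80%. Cells left of it reach 13456 UMIs outside haemoglobin in E4 and 10452 in E3. Right of it, no panel leads in 72 of 87 E4 and 111 of 125 E3 cells, by a rule that needs at least 5 UMIs. Such cells can still hold UMIs of these panels, which took 2.13% in E4 and 2.03% in E3 over all cells right of the line.

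The cells under 80% carried the transcripts of other brain cells beside haemoglobin. A panel was counted as leading in a cell when it made up at least 1% of the cell's non-haemoglobin UMIs with at least 5 UMIs. Among the 28 E4 cells, the astrocyte panel led in 10, the microglia panel in 7, the endothelial panel in 5, and the oligodendrocyte and choroid plexus panels in 1 each. Among the 24 E3 cells, the astrocyte and microglia panels led in 7 each, the endothelial panel in 3, the oligodendrocyte panel in 2 and the choroid plexus panel in 1. In 4 cells of each library no panel led. In E4 the largest of them held 13456 UMIs outside haemoglobin from 4407 genes, with the endothelial panel in the lead. The other-cell panels together made up 3.95% of the non-haemoglobin UMIs of these cells in E4 and 4.16% in E3, against 2.13% and 2.03% in the cells of 80% or more and 5.99% and 5.93% in cells with under 1% haemoglobin. No doublet caller was run, and the part of cell pairs or attached red cells in the 20 to 80% range was not tested.

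Among cells of 80% haemoglobin or more, most had a UMI of the erythroid markers Alas2 and Bpgm, and few had one of Slc4a1. Alas2 had at least 1 UMI in 67 of 87 E4 cells (77.0%) and 108 of 125 E3 cells (86.4%), at a median of 5039 and 7130 UMIs per cell. In microglia-marked cells, which should lack it, Alas2 was seen in 2 of 4718 E4 cells (0.0424%) and 3 of 3764 E3 cells (0.0797%), at a median of 4244 and 3668 UMIs. Bpgm, which makes the bisphosphoglycerate of red cells, had a UMI in 56 of the 87 E4 cells (64.4%) and 83 of the 125 E3 cells (66.4%), against 7.29% and 5.77% of microglia-marked cells. The anion exchanger Slc4a1 was seen in 5 of the E4 and 6 of the E3 cells. Ahsp, the alpha-globin chaperone on the marker list, was taken only as part of a list of globin chaperone and translation genes. Its own value is not reported here. That whole list had few UMIs, with 7, 3 and 7 in E4 and 22, 7 and 14 in E3. These counts are for cells with Hbb-bt at 15% or more, 5 to 15% and under 5% of beta globin, ranges described below.

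Nuclear transcripts were scarce in these cells. Xist, the nuclear RNA that coats the inactive X chromosome in every female cell with a nucleus, had 3 UMIs over the 87 E4 cells and 5 over the 125 E3 cells, or 122 UMIs per 1000000 UMIs outside haemoglobin in each, against 1422 in other E4 cells and 1224 in other E3 cells. All levels below are on that scale, written CPM. Malat1, a nuclear long non-coding RNA, made up 0.546% of non-haemoglobin UMIs in E4 and 0.785% in E3, against 5.81% and 5.63% in other cells. In the cells of 20 to 80% haemoglobin, Malat1 stood at 6.84% in E4 and 5.74% in E3, and Xist at 1291 and 1273 CPM.

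**Figure D2:**
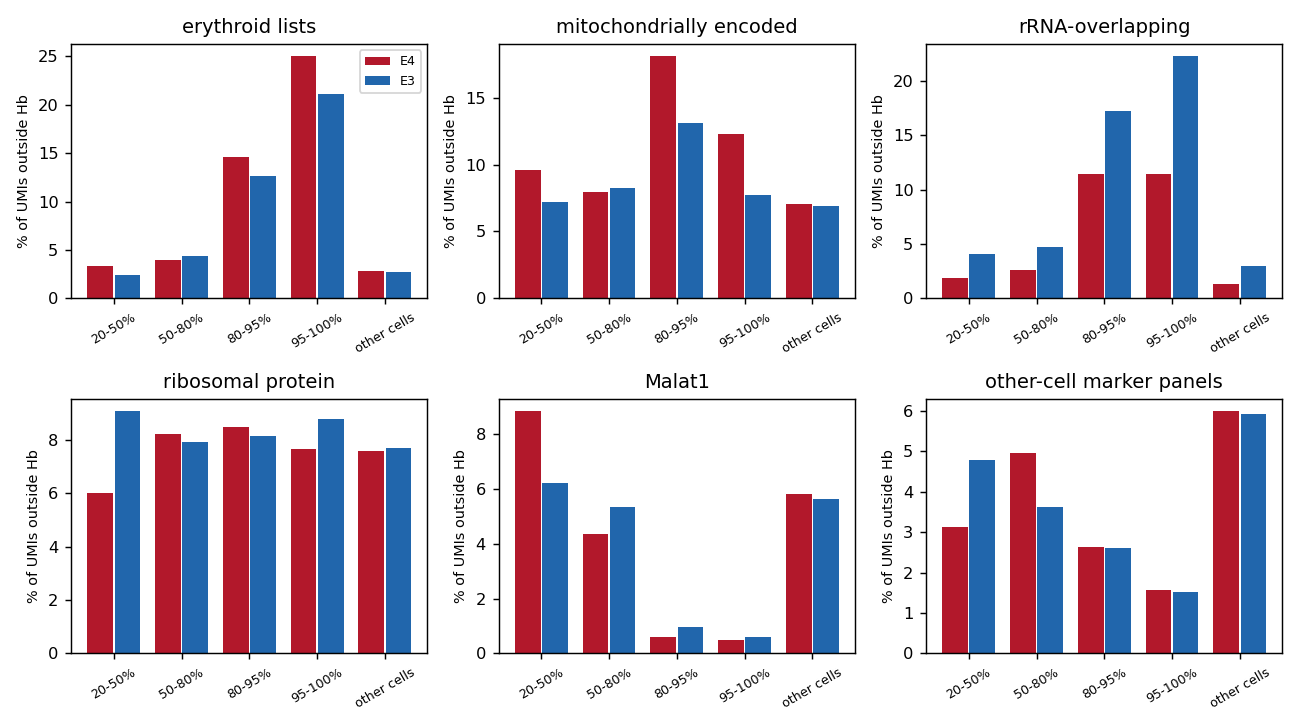
Bars give the percent of UMIs outside haemoglobin genes that 6 gene groups took, E4 in red left of E3 in blue, in cells of 20-50, 50-80, 80-95 and 95-100% haemoglobin and in other cells with under 1%; each bar is 1 sum over cells of 1 library, so there is no error bar. The erythroid lists reached 25.04% in E4 and 21.16% in E3 at 95-100%, where Malat1 was 0.485% and 0.606%.

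Genes of earlier erythroid stages had few UMIs or none in these cells. Gata1 and Klf1, the transcription factors that drive erythroid genes in nucleated precursors, had no UMI in any cell of 80% or more, which allows a share of up to 3.45% of such E4 cells and 2.40% of such E3 cells with a UMI. The 16 erythroid transcription factors together had 15 UMIs in E4 and 20 in E3, and the 15 progenitor and proliferation genes 4 and 5. Tfrc, the transferrin receptor by which immature erythroid cells take up iron, was seen in 0 and 2 cells. The embryonic globins Hba-x, Hbb-y, Hbb-bh1 and Hbb-bh2 had no UMI, and the minor theta globins Hbq1a and Hbq1b had 17 UMIs together in E4 and 30 in E3. Markers of other blood cells were near absent as well. The neutrophil list had 0 and 1 UMI, the lymphocyte list 0 and 1, the monocyte and macrophage list 1 and 1 and the platelet list 3 and 9.

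Most measured genes of the erythroid lists were above the other cells in the cells of 80% or more. Of 155 genes with at least 50 UMIs over both libraries in these cells, 71 (45.8%) were at least 2-fold above the other cells in both libraries and 8 (5.16%) at least 2-fold below. These are descriptions, since the cells were chosen by their transcripts. The genes, too, were chosen by their UMIs in these same cells. Genes low in these cells were thus left out, and the counts lean to genes above the other cells. The lists below hold 15, 30, 29, 19, 22 and 20 genes in that order, and most of these fell short of 50 UMIs. By list, 2 of 2 genes of haem synthesis, 3 of 4 of the membrane and skeleton, 11 of 11 of the ubiquitin and autophagy list, 7 of 7 of iron handling, 4 of 4 of antioxidant defence and 3 of 4 red cell enzymes were at least 2-fold above. The erythroid lists together took 19.6% of non-haemoglobin UMIs in E4 and 17.1% in E3, against 2.76% and 2.74% in other cells. Mitochondrially encoded genes took a further 15.3% in E4 and 10.3% in E3, rRNA-overlapping genes 11.4% and 19.9%, and ribosomal protein genes 8.08% and 8.47%. The genes below included Malat1, the choroid plexus transcript Ttr, the surface protein gene Bsg, the actin-binding Tmsb4x, the ribosomal fusion gene Fau, and Cst3 and C1qb of astrocytes and microglia.

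In haem synthesis, Alas2 alone had 460 UMIs in E4 and 703 in E3 (18732 and 17131 CPM), against 6 and 14 UMIs in all other cells of each library. Fech had 66 UMIs in E4 and 92 in E3 (2688 and 2242 CPM). Fam210b had 11 and 9, and each of the other 12 genes on the list had at most 4 UMIs in either library. The erythroid end of the pathway was thus represented by its opening and closing enzymes, while Alas1, the aminolevulinate synthase of other tissues, had 2 and 0 UMIs. Relative to haemoglobin itself, Alas2 had 9.73 UMIs per 10000 haemoglobin UMIs in E4 (8.86 to 10.7) and 8.61 in E3 (7.98 to 9.27).

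Among membrane genes, Epb41, of the skeleton under the membrane, had 4398 CPM in E4 and 2900 CPM in E3, against 28.6 and 23.9 CPM in other cells. Cd24a, a surface glycoprotein, had 1995 CPM in E4 and 1413 CPM in E3. Of the 30 genes on the list, 4 reached 50 UMIs, and 9 had no UMI in either library.

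Among genes of iron handling, the ferritin chains had the most UMIs. Ftl1, the light chain, had 22152 CPM in E4 and 19617 CPM in E3, each 16.9-fold above other cells. Fth1, the heavy chain, had 18080 and 14231 CPM, which was 3.47-fold and 2.60-fold above. The mitochondrial genes on the list varied. Isca1, for iron-sulphur cluster assembly, was 103-fold above in E4 and 99.5-fold in E3, and Slc25a37, the mitochondrial iron importer, 82.5-fold and 104-fold. Glrx5, a mitochondrial glutaredoxin, was 22.0-fold and 28.0-fold above, and Iscu, the scaffold for iron-sulphur clusters, 6.25-fold and 5.76-fold.

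Among red cell enzymes, Bpgm, whose product lowers the oxygen affinity of haemoglobin, had 439 UMIs in E4 and 632 in E3 (17877 and 15401 CPM), 285-fold and 234-fold above other cells. Car2, a carbonic anhydrase, had 2199 and 1072 CPM, and it was 3.61-fold above other cells in E4 and 1.65-fold in E3. Car2 had a UMI in 20.7% of these cells in E4 and 13.6% in E3, against 43.5% and 44.6% of other cells. Depth outside haemoglobin was unlike, with a median of 251 and 249 UMIs in these cells and 4100 and 3778 in other cells. A single cell held 40.7% of the Car2 UMIs in E4, and another 45.5% in E3. Genes of general glycolysis were sparse. Aldoa and Gapdh had 10 and 17 UMIs in E4 and 10 and 21 in E3, and Pklr, the red cell pyruvate kinase, had none.

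The ubiquitin and autophagy list had 11 measured genes of 29. Mkrn1, a ubiquitin ligase, had 342 UMIs in E4 and 543 in E3 (13927 and 13232 CPM), 200.8-fold and 201.6-fold above other cells. Ube2l6, a ubiquitin-conjugating enzyme, had 6841 and 5434 CPM. Bnip3l, the receptor through which reticulocytes dispose of mitochondria, had 6719 and 6848 CPM, and the autophagosome genes Gabarapl2 and Map1lc3b had 5416 and 3991 in E4 and 5215 and 4021 in E3. Tent5c, a poly(A) polymerase, had 3461 and 3460 CPM. Trim58, another ligase of late erythroid cells, had no UMI.

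Further genes, named after their values were seen, were far above the other cells in level. Apol11b, of the apolipoprotein L family, had 25 UMIs in E4 and 27 in E3, against 1 and 2 UMIs in all other cells. Rec114, known for meiotic recombination, had 24 UMIs in E4 and 45 in E3, against 24 and 20 in the far more numerous other cells, which was 2722-fold and 2893-fold above in CPM. Isg20, an exonuclease, had 88 and 134 UMIs, against 376 and 254 in other cells, which was 637-fold and 678-fold above in CPM.

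The globin copies had close summed shares in the libraries and a wide spread between cells. In cells of 80% or more, alpha globin made up 39.5% of the haemoglobin UMIs in E4 and 41.0% in E3, and Hba-a2 45.3% and 45.5% of alpha. Hbb-bt made up 14.99% and 16.12% of beta globin over the summed UMIs. The share of Hbb-bt per cell ranged from 0.20 to 26.5% in E4 with a median of 8.10%, and from 0.38 to 29.5% in E3 with a median of 12.5%. In both libraries the cells fell into a group near 0 and a broad group near 20%. In E4, 17 cells lay under 2% and 18 at 2 to 4%, while 9 lay at 16 to 18% and 9 at 18 to 20%. In E3, 21 and 19 cells lay in the low bins and 10 in each of the high ones. The beta-globin transcripts share much of their sequence. Of the 91-base windows of the Hbb-bs transcript, 63.2% also occur in that of Hbb-bt, and 55.5% of those of Hbb-bt occur in Hbb-bs. The split therefore rests on reads over the differing bases, and its absolute level is uncertain.

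The share of Hbb-bt moved with the size of the cell's library. Across the 87 E4 cells its Pearson correlation with UMIs per cell was 0.89 (Spearman 0.84), and across the 125 E3 cells it was 0.88 (0.88). These are descriptions across cells of 1 library each, which share preparation and, through total UMIs, depth. For the description below, cells were divided at 5 and 15% of beta globin, ranges set after the spread had been seen, with 4 E4 and 6 E3 cells at 4 to 6% and 7 and 10 cells at 14 to 16%. At 15% or more there were 33 E4 and 55 E3 cells, at 5 to 15% 17 and 25, and under 5% 37 and 45. The median cell had 9488, 6594 and 1938 UMIs in these ranges in E4 and 9912, 7179 and 2897 in E3.

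**Figure D3:**
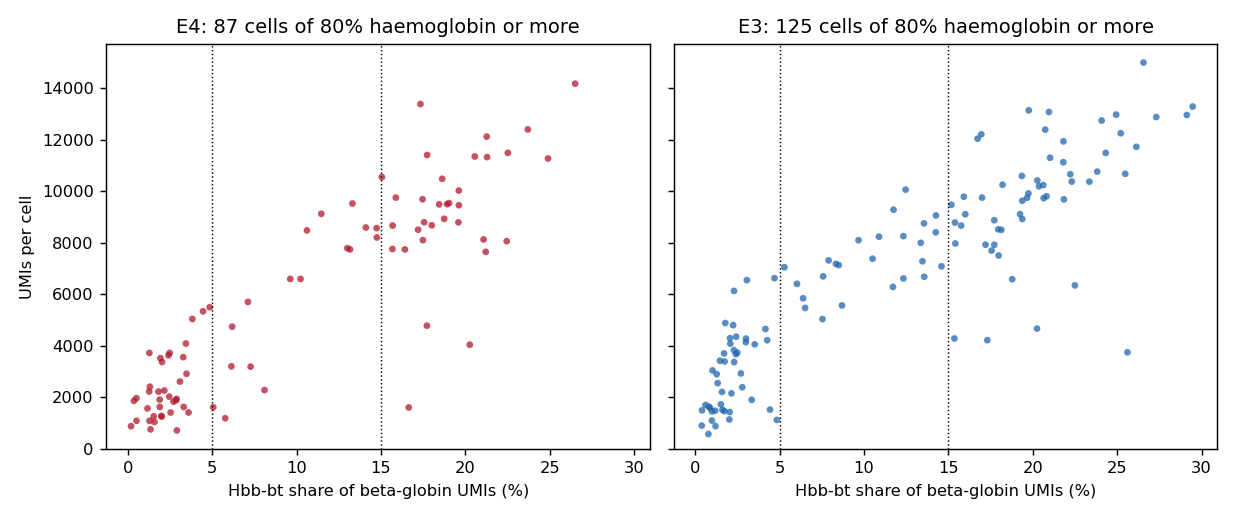
Each point is 1 cell of 80% haemoglobin or more, E4 in red on the left and E3 in blue on the right, with the Hbb-bt share of beta-globin UMIs in percent on the x axis and UMIs per cell on the y axis; dotted lines stand at 5 and 15%. The 37 E4 and 45 E3 cells under 5% have medians of 1938 and 2897 UMIs, and the 33 and 55 cells of 15% or more 9488 and 9912.

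The transcripts outside haemoglobin differed along with the Hbb-bt share in both libraries. Of 126 genes with at least 50 UMIs over the compared cells, 46 (36.5%) were at least 2-fold higher at 15% or more than under 5% in both libraries, and 4 (3.17%) at least 2-fold lower in both, given here as a description with no test. The median over all 126 genes was a log2 ratio of 0.45 in E4 and 0.23 in E3. Cells of 15% or more held 12678 UMIs outside haemoglobin in E4 and 24817 in E3, against 7416 and 8865 under 5%. Genes high at 15% or more therefore reached 50 UMIs more easily. The lean of these counts, and of those by list, was partly set by that filter. All 11 measured genes of the ubiquitin and autophagy list were at least 2-fold higher (median log2 ratio 2.85 in E4 and 2.37 in E3), as were all 4 of antioxidant defence (3.54 and 3.60), all 3 red cell enzymes (3.13 and 2.23) and both of haem synthesis (2.07 and 1.65). Of 6 genes of iron handling 1 was, and of 2 membrane genes 1. None of 11 mitochondrially encoded genes and none of 29 ribosomal protein genes was, and their median log2 ratios were -1.04 and -0.42, and -0.67 and -0.43.

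Mkrn1 showed the widest contrast among genes counted in all 4 groups of cells. It had 270 UMIs in the E4 cells of 15% or more, against 4 in those under 5%, a log2 ratio of 5.30 (3.93 to 7.19). In E3 it had 484 UMIs, against 2, a log2 ratio of 6.43 (4.57 to 9.48). In cells under 5% these few UMIs came to 539 CPM in E4 and 226 CPM in E3. Other cells had 69.3 and 65.6 CPM of Mkrn1. Bpgm had 352 UMIs against 22 in E4 (log2 ratio 3.23, 2.61 to 3.92) and 539 against 17 in E3 (3.50, 2.81 to 4.29). Alas2 differed less, with 302 UMIs against 46 in E4 (1.94, 1.49 to 2.42) and 477 against 75 in E3 (1.18, 0.83 to 1.56), and Fech stood at 2.20 in E4 and 2.12 in E3.

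Several genes had at most 2 UMIs in the cells under 5%. Glrx5 had 35 UMIs against 0 in E4 and 73 against 0 in E3, at least 6.82-fold and 8.69-fold higher when 0 is set to 3 UMIs over the group. Gpx1, a glutathione peroxidase, had 90 against 2 in E4 and 111 against 0 in E3. Cd24a had 40 against 1 and 55 against 1, and the ubiquitin-conjugating Ube2b 24 against 1 and 81 against 1.

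The ferritin chains differed from the other lists. Ftl1 was higher at 15% or more, by a log2 ratio of 0.98 (0.66 to 1.32) in E4 and 0.57 (0.29 to 0.86) in E3. Fth1 was lower there in E4, at -0.38 (-0.68 to -0.08), and higher in E3, at 0.76 (0.41 to 1.13), so its direction was not shared. In E4, 1 cell held 43.3% of the Fth1 UMIs under 5%. The 4 genes at least 2-fold lower at 15% or more in both libraries were Eef1a1, mt-Nd4l, Rpl21 and Rps12, all of translation or of the respiratory chain.

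**Figure D4:**
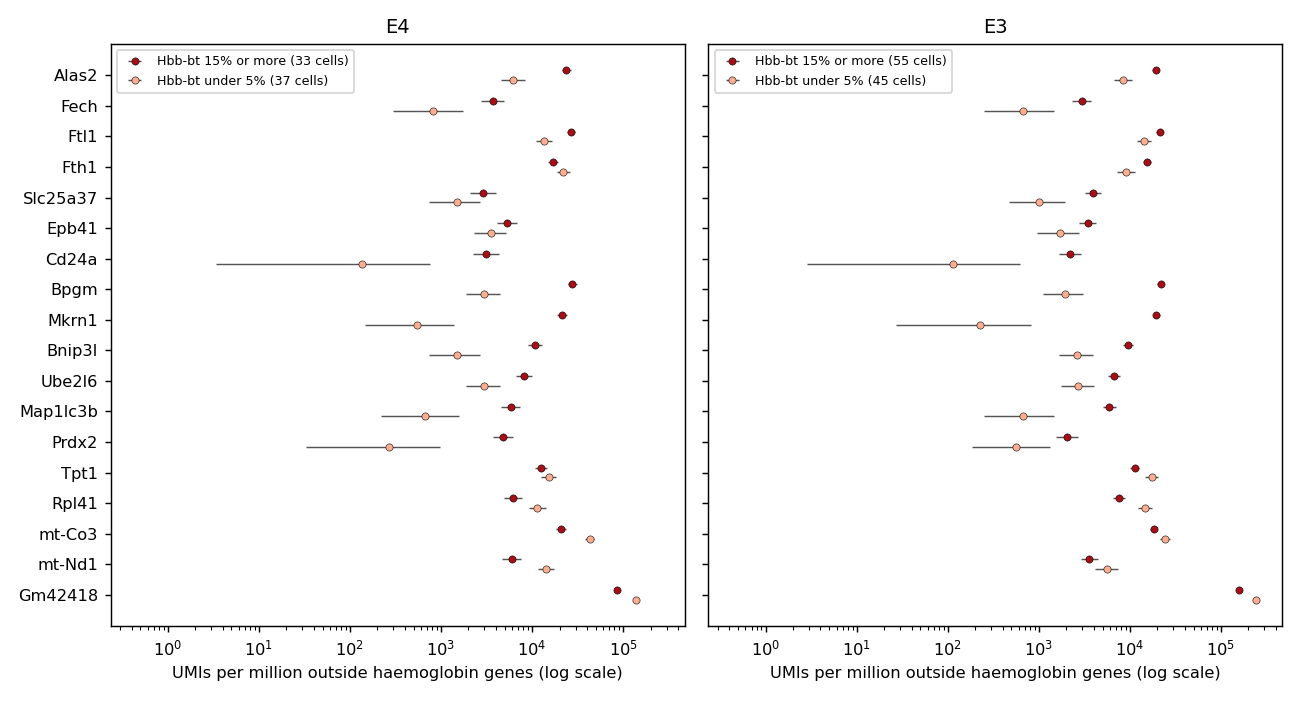
Levels of 18 genes in CPM outside haemoglobin, on a log x axis, in E4 on the left and E3 on the right, with cells of 15% or more Hbb-bt in dark red and cells under 5% in light red; bars are exact Poisson 95% intervals and cover counting error only. Mkrn1, Bpgm and Cd24a lie far apart between the ranges, while Tpt1, Rpl41, mt-Co3, mt-Nd1 and Gm42418 are lower at 15% or more.

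Other measures moved with the same ranges. Mitochondrially encoded genes took 12.0% of non-haemoglobin UMIs at 15% or more, 13.8% at 5 to 15% and 22.0% under 5% in E4, and 9.30, 11.2 and 12.4% in E3. The erythroid lists took 26.7, 19.0 and 7.86% in E4 and 21.8, 13.3 and 7.06% in E3. The panels of other brain cells took 1.62, 2.13 and 2.99% in E4 and 1.65, 2.23 and 2.92% in E3. Depth and the transcripts of other cells thus differed between the ranges together with the erythroid genes, and their part in the contrast was not tested.

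Between E4 and E3, the sums over all members and those over cells of 80% or more differed in direction for several groups. Over all members, 23 of 597 genes (3.85%) were at least 2-fold higher in E4 and 14 (2.35%) at least 2-fold lower, and the median log2 ratio was -0.04. The sums of haem synthesis (-0.33, -0.47 to -0.19), ubiquitin and autophagy (-0.30, -0.38 to -0.22) and iron handling (-0.36, -0.45 to -0.28) were lower in E4. That of nuclear-retained RNA was higher (0.43, 0.38 to 0.48). In cells of 80% or more the same sums were 0.18 (0.02 to 0.34), 0.11 (0.01 to 0.20), 0.15 (0.04 to 0.25) and -0.51 (-0.80 to -0.22), each on the other side of 0. With haemoglobin at 50% or more as the minimum, haem synthesis stood at -0.11, and with a minimum of 10%, which added 3 cells to each library, among them an E3 cell of 28348 UMIs, at 0.03. The endothelial panel moved with the sum over all members, with 583 UMIs in E4 and 326 in E3 (log2 ratio 0.90), and so did the oligodendrocyte panel, with 610 and 1015 (-0.67). Their part in these sums was not tested.

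The genes with the highest ratios over all members were counted mostly in the cells of 20 to 80%. By the rule for naming genes, the 10 highest log2 ratios outside the lists belonged to Spock2, Cd9, Sptbn1, Fcrls, Calm2, Laptm5, Marcks, Serinc3, Ctsl and Pltp, between 0.58 and 1.06. These 10 had 1 to 8 UMIs each in the E4 cells of 80% or more and 5 to 12 in those of E3. Spock2, at 100 UMIs in E4 and 50 in E3, had 49.0% of its E4 UMIs in 1 cell and 52.0% of its E3 UMIs in 1 cell. The lowest was Bc1, a small cytoplasmic RNA, at -1.32 (-1.71 to -0.94), which stood at -1.17 in other cells and had 64 of its 80 E4 UMIs and 147 of its 208 E3 UMIs in cells of 80% or more. The lowest 10 also included Plaat3, Stmn1, Elob, Rps28, Rps26, Gpm6b, Rpl41 and Tmem256, between -0.84 and -0.66.

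Cells of 80% or more offer the closer view of the genotypes. There 5 of 155 genes (3.23%) were at least 2-fold higher in E4 and 0 (0%) at least 2-fold lower, and no counting interval lay wholly past 2-fold in either direction. The median log2 ratio was 0.05 over the 155 genes and -0.04 for the same genes in other cells. Of the 5 genes, Ube2c, Rsad2, Eif5 and Car2 are described here and were named after their values were seen. With mitochondrially encoded and rRNA-overlapping genes left out of the scale, every log2 ratio falls by 0.068, Car2 drops out and 4 genes of 141 remain higher with 1 lower.

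Ube2c, the conjugating enzyme of the anaphase-promoting complex, had 36 UMIs in 13 of 87 E4 cells and 20 UMIs in 13 of 125 E3 cells, a log2 ratio of 1.59 (0.76 to 2.46). Rsad2, an interferon-induced antiviral enzyme, had 75 UMIs in 19 E4 cells and 49 in 26 E3 cells (1.35, 0.82 to 1.90). Single cells weighed on both. For Ube2c 1 E4 cell held 36.1% of the UMIs, and for Rsad2 1 E4 cell held 37.3%. Without the top cell of each library the log2 ratios were 1.18 for Ube2c and 0.94 for Rsad2. Eif5, a translation initiation factor, had 33 and 22 UMIs (1.33, 0.50 to 2.17), and Car2 54 and 44 (1.04, 0.43 to 1.64), with 40.7% of the E4 and 45.5% of the E3 Car2 UMIs in 1 cell each.

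**Figure D5:**
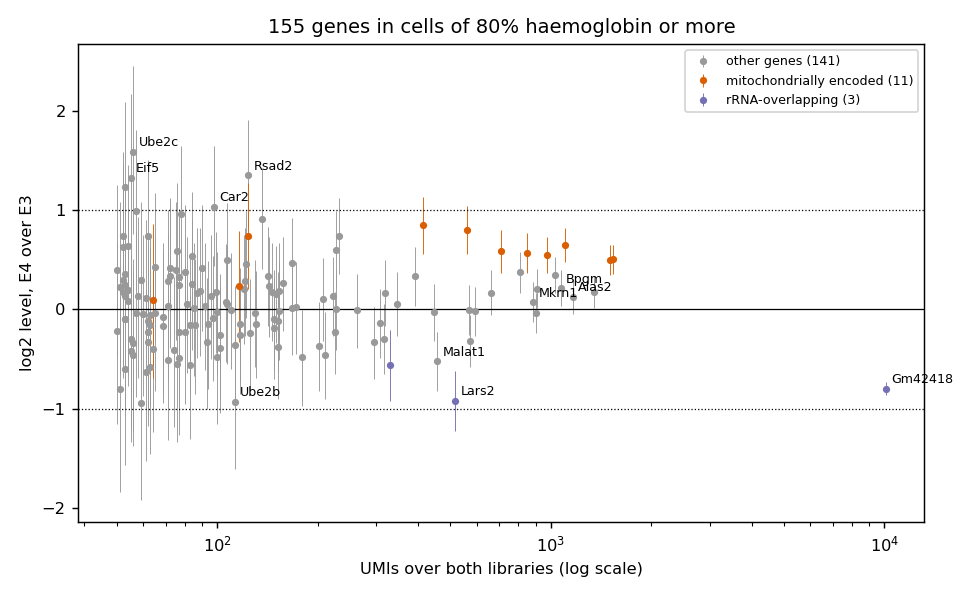
Each point is 1 of 155 genes in cells of 80% haemoglobin or more, with its UMIs over both libraries on a log x axis and the log2 ratio of its level in E4 over E3 on the y axis; vertical bars are exact 95% counting intervals and dotted lines mark 2-fold. All 11 mitochondrially encoded genes lie above 0 and the 3 rRNA-overlapping genes below it, while Alas2 lies at 0.13, Bpgm at 0.22 and Mkrn1 at 0.07. The median over the 155 genes is 0.05, with 26 intervals wholly above 0 and 9 wholly below.

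Among abundant genes of the erythroid lists, log2 ratios in these cells were small and not all on 1 side of 0. Alas2 had a log2 ratio of 0.13 (-0.04 to 0.30), Mkrn1 of 0.07 (-0.13 to 0.27), Bnip3l of -0.03 (-0.31 to 0.26) and Bpgm of 0.22 (0.04 to 0.39). Ube2l6 stood at 0.33 (0.03 to 0.63). The intervals do not show equal levels. At 15% or more Hbb-bt, Alas2 stood at 0.31 (0.10 to 0.52), Bpgm at 0.35 (0.16 to 0.55) and Mkrn1 at 0.13 (-0.09 to 0.34). At 5 to 15% they stood at 0.29 (-0.08 to 0.65), 0.49 (-0.006 to 0.99) and 0.98 (0.45 to 1.51). Under 5% they stood at -0.45 (-1.01 to 0.10), 0.63 (-0.35 to 1.63) and 1.26 (-1.55 to 4.72). Ube2b had the lowest ratio of the ubiquitin list, with 27 UMIs in E4 and 86 in E3 (-0.93, -1.61 to -0.29).

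Some groups stood higher in E4 within these cells. The 30 membrane genes summed to 267 UMIs in E4 and 285 in E3, or 1.09% and 0.695% of non-haemoglobin UMIs (log2 ratio 0.65, 0.40 to 0.89), and the median over the 4 genes measured was 0.80. Epb41 stood at 0.60 (0.21 to 0.99). The antioxidant genes summed to 317 and 344 UMIs (0.62, 0.40 to 0.85), with Prdx2, a peroxiredoxin, at 0.91 (0.40 to 1.42), Blvrb, a biliverdin reductase, at 0.96 (0.29 to 1.65) and Gpx1 at 0.74 (0.36 to 1.12). In E4, 1 cell held 42.9% of the Blvrb UMIs, and without the top cells its ratio was 0.37. The remaining measured gene, Hagh, a glyoxalase, stood at -0.12 (-0.94 to 0.66).

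The mitochondrially encoded genes were higher in E4 as a group. They took 15.3% of non-haemoglobin UMIs in E4 and 10.3% in E3 (log2 ratio 0.57, 0.51 to 0.64), and 11 of 11 measured genes were above 0, with mt-Nd1 at 0.85 (0.56 to 1.13) and mt-Nd4 at 0.80 (0.56 to 1.05). Over all 155 genes measured in these cells the median was 0.05, with 26 counting intervals wholly above 0 and 9 wholly below. In other cells the mitochondrially encoded genes took 7.07% and 6.92%. The rRNA-overlapping genes Gm42418, AY036118 and Lars2 went the other way, with 11.4% in E4 and 19.9% in E3 (-0.80, -0.86 to -0.73). In other cells they took 1.30% and 2.95% (-1.19), so that this difference ran through both libraries at large. Shares compete within the same total. The libraries were also handled by different Cell Ranger releases, 6.1.1 for E4 and 6.1.2 for E3, which cannot be told apart from the genotype.

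Within the ranges of Hbb-bt share, the differences between genotypes were not alike for all groups. The mitochondrially encoded sum was higher in E4 by a log2 ratio of 0.37 (0.27 to 0.46) in cells of 15% or more, 0.30 (0.14 to 0.45) at 5 to 15% and 0.83 (0.72 to 0.94) under 5%. The membrane sum stood at 0.67 (0.39 to 0.96), 1.07 (0.33 to 1.83) and 1.01 (0.26 to 1.78). Haem synthesis stood at 0.35 (0.16 to 0.54), 0.35 (0.01 to 0.69) and -0.30 (-0.82 to 0.21), and antioxidant defence at 0.73 (0.48 to 0.98), 1.52 (0.86 to 2.21) and -0.20 (-1.23 to 0.79). The rRNA-overlapping sum was at -0.85, -0.94 and -0.82. The mitochondrial, membrane and rRNA-overlapping differences thus had 1 direction in all 3 ranges, while those of haem synthesis and antioxidant defence did not. Whether the differences themselves vary between ranges was not tested.

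Outside the lists, the 15 genes with the most UMIs over the members were Tpt1, Tmsb4x, Oaz1, Rpl41, Rps29, Sec61g, Rplp1, Actb, H3f3a, Mt1, Rpl13, Eif1, Ctsd, Itm2b and Rps12. Oaz1, the antizyme that marks ornithine decarboxylase for destruction, kept 373 of its 509 E4 UMIs and 539 of its 664 E3 UMIs in cells of 80% or more, and Sec61g, of the protein translocon, 220 of 274 and 372 of 423. Actb had only 18 of 304 UMIs and 31 of 274 there, and Ctsd, a lysosomal protease, 10 of 241 and 37 of 195. The abundant transcripts of the members thus came from different cells, Oaz1 and Sec61g from cells of nearly pure haemoglobin and Actb and Ctsd mostly from the others.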

How the data were processed

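Single-cell libraries of brain suspensions were sequenced from 1 pool of 3 mice per genotype. The authors deposited raw UMI counts for 32285 genes per barcode, made with Cell Ranger (6.1.1 for E4 and 6.1.2 for E3, per the file headers) on mm10. The counts summed to 71625170 in E4 and 56415229 in E3. Here cells were filtered and chosen as stated, and 46 barcodes occurred in both libraries. Levels were UMIs per 1000000 UMIs outside the 10 haemoglobin genes (CPM). Ratios carry exact intervals on the split of UMIs (Clopper-Pearson, 95%), levels exact Poisson and shares exact binomial ones, for counting error only. Genes needed 50 UMIs, a group at 0 was set to 3 UMIs, and 2-fold served as a threshold of size with no test. Members and gene lists were chosen with earlier results of these data known. The 80% minimum, the Hbb-bt ranges and the omission of Cst3 from the leading astrocyte panel followed after values were seen. Named genes were list members with at least 50 UMIs (up to 6 a list by UMI count, and those 2-fold apart), and outside the lists the 15 with the most UMIs and, of those with 100 or more, the 10 highest and 10 lowest ratios; others were chosen after their values were seen. No doublet caller was run. Scripts used Python 3.11.15, NumPy 2.4.6, SciPy 1.17.1 and pandas 2.3.3 and were tested on simulated data. Some named genes are not reported here.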

Additional observations from a re-analysis of the deposited data

How the results depend on the processing

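The erythroid share was lower in E4 in each setting run, with log2 ratios of -0.58 to -0.998, though without members holding other-cell markers the interval was -2.13 to 0.91. The difference in median haemoglobin share, -2.26 percentage points in E4 minus E3, was -1.76 with a minimum of 50%, -1.10 with 80%, -0.29 without members holding other-cell markers and 0.017 at 80% with Hbb-bt at 15% or more. Of the list sums over all members, only the mitochondrially encoded sum kept its side of 0 in each setting that gave it. In the main setting the log2 ratios of E4 over E3 were -0.33 for haem synthesis, 0.48 for membrane and -0.30 for ubiquitin and autophagy. They were 0.43 for nuclear-retained RNA and 0.25 for mitochondrially encoded genes, and 37 genes were 2-fold apart. With a haemoglobin minimum of 50%, haem synthesis was -0.11, membrane -0.096, ubiquitin -0.10, nuclear RNA -0.085 and mitochondrial 0.21, with 66 genes. With a minimum of 10% the 5 sums were 0.032, 0.060, 0.040, 0.36 and 0.37. Without members holding other-cell markers at 1% or more, which left 8 E4 and 10 E3 cells, haem synthesis was -0.59, membrane 0.15, nuclear RNA -0.64 and mitochondrial 2.26, with 12 genes. With mitochondrial and rRNA-overlapping genes out of the scale, nuclear RNA was 0.37. As means of cells' shares, haem synthesis was -0.048, ubiquitin -0.091, nuclear RNA 0.11 and mitochondrial 0.73, with 103 genes. Thinned to 500 UMIs a cell, the 5 sums were -0.17, 0.97, 0.045, 0.023 and 0.67, with 2 genes. Settings added after seeing the data were a minimum of 80% (0.18, 0.65, 0.11, -0.51 and 0.57, with 5 genes) and 80% with Hbb-bt at 15% or more (0.35, 0.67, 0.17, -0.67 and 0.37, with 6 genes). The count of 37 genes was 229 with a minimum of 20 UMIs, 11 with 100 UMIs and 5 for intervals wholly past 2-fold. The cause of these changes was not tested. No paired analysis was possible because each genotype was 1 pooled library, and no replicate could be left out. The median of 251 UMIs outside haemoglobin per E4 cell and 249 per E3 cell of 80% or more limits what can be detected.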
